A study of Mus musculus with 10 samples.

Results

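The genes described here are those of the cytosolic ribosomal proteins, measured in lung of mice given bleomycin. They were chosen by name: protein-coding genes whose symbol begins with Rpl or Rps and a digit, together with Rplp0, Rplp1, Rplp2 and Rpsa, leaving out the S6 kinases and symbols marked as pseudogenes. The rule took 86 of the 33347 genes in the table and used no measured value. They comprised 43 genes of the large subunit, 31 of the small subunit, 3 of the P-stalk, 7 paralogs or retrogenes of subunit genes, and 2 genes that encode no subunit but are named after one (Rps19bp1, which encodes a protein that binds Rps19, and Rps23rg1, a retroposed relative of Rps23). They lay on 19 chromosomes, with 4 on X.

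RNA came from lung of wild-type mice given bleomycin, a drug that breaks DNA and is used to bring on lung scarring in mice. They had been injected with bone marrow cells of high (ALDHbr) or low (ALDHdim) aldehyde dehydrogenase activity, with 5 libraries a group, and the question is how the lungs of both kinds of recipient differed in expression. Age, sex, dose and time after injection are not stated in the labels, and no lung without bleomycin or without transferred cells was analysed here, which leaves the other recipients as the only reference. Whether each library is a different animal is not in the labels, and p-values therefore measure only the spread between these samples, which may be technical. In bulk tissue, fewer cells of a type and less RNA per cell cannot be told apart.

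Each ribosome is built from a small subunit, which reads the mRNA, and a large subunit, which joins amino acids, and cells make the proteins of both in matched amounts. In vertebrates their mRNAs typically begin with a C followed by an unbroken run of pyrimidines, the 5′ terminal oligopyrimidine (TOP) motif, through which the growth kinase mTORC1 and the binding protein LARP1 control their translation and stability together. Their genes have also left many processed copies in mammalian genomes, which matters for counting reads.

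The start sites are shown because the members moved together across libraries, and the letters at their starts are a feature that the rule did not use. RefSeq starts on GRCm38.p6 were found for 66 members, which had 78 starts. A run of at least 7 C or T letters, read in the direction of the transcript and touching the 10 bases on either side of the start, was present at 36 of the 78 (46.15%), against 19.68% of all 32851 starts in the table. It was present at 10 of 15 starts (66.67%) of other translation genes known or thought to carry TOP motifs, and at 16.22% of 74 starts of mitochondrial ribosomal protein genes, which serve the separate ribosome of mitochondria. The windows below hold 15 bases before the start and 15 from it, with the run in capitals. The first 4 come from subunit and stalk genes with a run. Rps27 and its retrogene Rps27rt differ in having one, and Rpl22l1 is a paralog with one. Rps3a1 and Rps4x, without one, were among the members least correlated with the rest. Other members without one, not printed here, followed the rest closely, such as Rps3 (r = 0.985), Rpl11 (0.983) and Rps7 (0.969). Whether a run goes with the correlation was not tested. The starts are annotated ones and were not measured in these samples. Some members had starts with and without a run, such as Rpl19 and Rps24. A member with no run here is therefore not shown to lack a TOP motif.
Rplp2: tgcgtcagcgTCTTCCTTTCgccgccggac
Rpl18: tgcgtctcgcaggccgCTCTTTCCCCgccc
Rps6: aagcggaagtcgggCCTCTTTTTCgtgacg
Rps18: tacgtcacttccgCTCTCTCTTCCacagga
Rps27: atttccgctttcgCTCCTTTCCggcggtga
Rps27rt: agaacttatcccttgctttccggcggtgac
Rpl22l1: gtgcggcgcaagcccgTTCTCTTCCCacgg
Rps3a1: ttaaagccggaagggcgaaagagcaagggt
Rps4x: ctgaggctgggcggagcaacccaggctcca
On GRCm38.p6 these windows are, in the same order, chr7:141447636-141447665 (plus strand), chr7:45718056-45718085 (plus), chr4:86857353-86857382 (minus), chr17:33955651-33955680 (minus), chr3:90213634-90213663 (minus), chr9:114982725-114982754 (minus), chr3:28805493-28805522 (plus), chr3:86142654-86142683 (minus) and chrX:102189377-102189406 (minus).

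Other promoter words were searched on both strands in the 300 bases from 250 before to 50 after each start, and none of the 3 words contains another. CCGGAAG, a core of ETS-family sites, was in 34.62% of the members' 78 windows, against 8.86% of all windows and 33.78% of those of the mitochondrial ribosomal proteins. AAGATGGC, a YY1 site, was in 10.26% against 2.75%. TATAAA, the TATA box word, was in 8.97% against 13.62%. These are matches of letters, not measured binding sites.

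The libraries held 588063 to 2002947 counts. All 10 markers of lung epithelium were above the count filter, with Sftpc, which encodes a surfactant protein made by alveolar epithelium, at 14603 CPM or more in every library (CPM being the count relative to the library's TMM-scaled total over tested genes). The lowest depth was that of ALDHbr 2, and ALDHbr 3 and ALDHbr 5 stood out by their 22807 and 21577 genes with a count when every library was thinned to 588063 counts, against 16228 to 18056 in the other 8. The test covered 10844 genes passing the low-count filter, 82 members among them.

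Ribosomal protein genes took between 4.36% and 7.04% of each library's counts. The share was 4.36% in ALDHbr 1 (95% Wilson interval 4.32 to 4.39), 7.04% in ALDHbr 2 (6.97 to 7.10), 6.34% in ALDHbr 3, 6.03% in ALDHbr 4 and 6.15% in ALDHbr 5. In the ALDHdim libraries 1 to 5 it was 4.77%, 5.01%, 5.52%, 5.36% and 5.63%. The highest 4 values were all from ALDHbr recipients and so was the lowest, ALDHbr 1, so the groups overlapped. Whether UMIs were collapsed is not known and PCR copies are not independent molecules, so these intervals cover counting error only.

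The mean share was 5.98 ± 0.989% in ALDHbr and 5.26 ± 0.360% in ALDHdim recipients (SD, n = 5 each), a difference of 0.721 percentage points that was not larger than the spread between libraries (exact two-sided permutation p = 0.159, adjusted p = 0.333 over 7 library-level measures). Without ALDHbr 1 the difference was 1.13 percentage points, with an unadjusted exact permutation p of 0.00794, the smallest that the design allows. That library was singled out after its value was seen. All remaining ALDHbr shares exceeded every ALDHdim share, so the choice fixed this p, and no conclusion is drawn from it. Without ALDHbr 2 the difference was 0.458 percentage points.

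**Figure D1:**
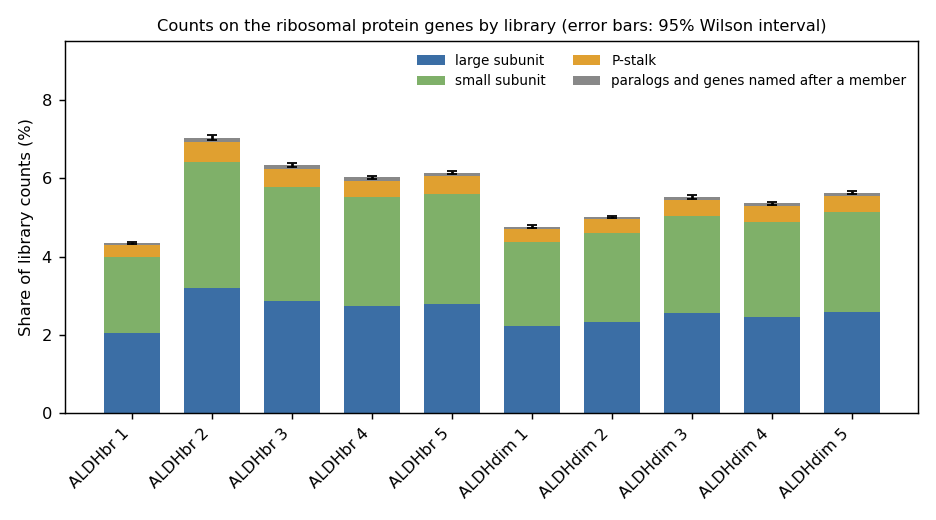
Share of each library's counts (%, bars stacked by kind of member) on the 86 ribosomal protein genes, with the 95% Wilson interval of the total as error bar. ALDHbr 1 has the lowest share (4.36%) and ALDHbr 2 the highest (7.04%), while the ALDHdim libraries lie between 4.77% and 5.63%.

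Gene by gene, 0 of the 82 tested members passed the threshold of 0.05 for the adjusted p in edgeR's quasi-likelihood test with Benjamini-Hochberg adjustment, and 0% of all tested genes did (adjusted p = 0.999 for every member). At an unadjusted p under 0.05 there were 9 members, all with higher estimates in ALDHbr recipients, against 2.13% of all tested genes in that direction and 1.58% in the other (3.71% in either). DESeq2 called 0 members as well, with 10 at an unadjusted p under 0.05 (4.39% of all genes). The limma-voom fit used sample weights, which let libraries count unequally. It called 0, with 36 at that level (6.34% of all genes). The log2 fold change of ALDHbr over ALDHdim lay above 0 for 75 of the 82 members (91.5%), and below 0 for 7, against 51.9% and 48.1% of all tested genes. It ranged from −0.24 to 0.56 with a median of 0.25, against 0.01 over all tested genes. Since the members moved together across libraries, these counts are not 82 separate observations.

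The precision was enough to bound most members inside 2-fold. On the log2 scale the 95% interval had a median half-width of 0.34, against 0.43 over all tested genes. For 41 of the 82 members it stayed inside 1.5-fold both ways, and for 80 inside 2-fold. Of all 10844 tested genes, 5274 stayed inside 1.5-fold and 9818 inside 2-fold. Both subunits had like estimates. The median log2 fold change was 0.23 for the large subunit (38 of 42 above 0), 0.23 for the small subunit (29 of 31), 0.29 for the P-stalk (3 of 3) and 0.34 for the paralogs (4 of 5).

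Leaving out ALDHbr 1 gave a median of 0.36 over the members with 59 of 82 at an unadjusted p under 0.05, against 10.4% of all genes tested in that fit, and still 0 members called (smallest adjusted p 0.301, edgeR). Leaving out ALDHbr 2 gave a median of 0.17 with 1 member at that level, against 3.66% of all genes. Both libraries were singled out after their values were seen.

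**Figure D2:**
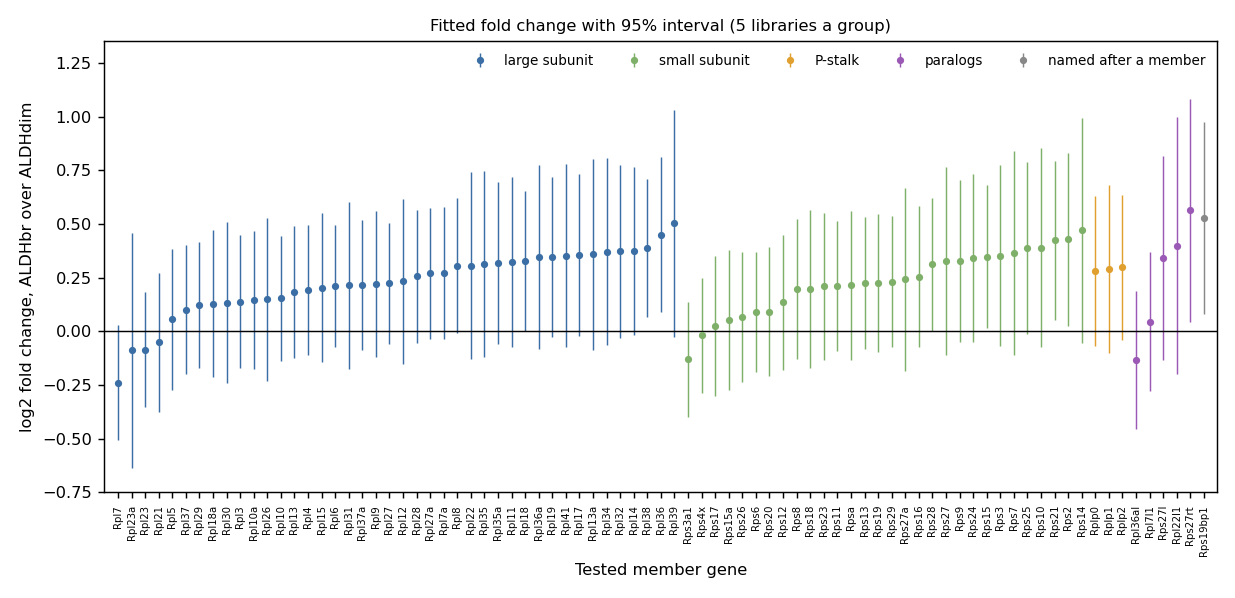
Fitted log2 fold change of ALDHbr over ALDHdim (vertical axis, points) with 95% intervals (lines) for the tested members, grouped and coloured by role and sorted within each role. The estimates run from −0.24 for Rpl7 to 0.56 for Rps27rt, most of them above 0, and none passed the threshold.

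Among the small-subunit genes, Rps14, known for its loss in the 5q- syndrome of bone marrow, had the highest mean level of any member. Its levels, in CPM, were 1150, 3566, 3331, 2023 and 2676 in ALDHbr libraries 1 to 5 and 1504, 1590, 2189, 1944 and 1967 in ALDHdim libraries 1 to 5. Of the 10 libraries ALDHbr 1 was the lowest and ALDHbr 2 and 3 the highest, so the ALDHdim values lay inside the ALDHbr range. The means were 2549 ± 987 and 1839 ± 285 CPM, a log2 fold change of 0.47 (SE 0.25).

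Rps3, which lines the entry of the mRNA channel, was at 1008, 2412, 2230, 1798 and 2041 CPM in ALDHbr and at 1265, 1372, 1657, 1486 and 1645 CPM in ALDHdim libraries (log2 fold change 0.35, SE 0.20). For Rps3, ALDHbr 1 was below every ALDHdim library and ALDHbr 2 was above every other library. Rps12 had a narrower spread, at 1193, 1886, 1592, 1523 and 1559 against 1266, 1342, 1469, 1472 and 1507 CPM (0.13, SE 0.15).

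Rps7, a small-subunit protein of the group that binds Mdm2, ranged from 561 CPM in ALDHbr 1 to 1522 CPM in ALDHbr 2, with ALDHdim libraries at 763 to 1125 CPM (0.36, SE 0.22). Rps19, the gene most often mutated in Diamond-Blackfan anemia, averaged 1205 ± 230 and 1030 ± 59.9 CPM (0.22, SE 0.15). Rps6, the substrate of the S6 kinases, averaged 200.9 ± 33.4 and 187.2 ± 12.7 CPM (0.09, SE 0.13). Rpsa, a small-subunit protein also described as a laminin receptor, was at 386, 685, 708, 655 and 696 CPM in ALDHbr and at 498, 507, 505, 563 and 620 CPM in ALDHdim libraries. In Rpsa the ALDHbr group without ALDHbr 1 lay above all 5 ALDHdim libraries, and with it the log2 fold change was 0.21 (SE 0.16).

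Among the large-subunit genes, Rpl39, a small protein of the peptide exit tunnel encoded on X, was at 380, 1091, 1071, 724 and 939 CPM in ALDHbr and at 483, 465, 791, 588 and 635 CPM in ALDHdim libraries (0.50, SE 0.25). Rpl36 was at 215, 440, 313, 233 and 317 against 194, 219, 247, 220 and 224 CPM (0.45, SE 0.17, unadjusted p = 0.0179 in edgeR's quasi-likelihood test). For Rpl39, ALDHbr 4 lay within the ALDHdim range and ALDHbr 1 under it, and for Rpl36 both were within that range. Rpl11 and Rpl5, which with 5S rRNA form a particle that can bind Mdm2, differed from each other: Rpl11 averaged 1249 ± 332 and 998 ± 133 CPM (0.32, SE 0.19), and Rpl5 averaged 712 ± 149 and 683.8 ± 42.0 CPM (0.06, SE 0.16). No test was made of the difference between these 2 genes.

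Some members had lower estimates in ALDHbr recipients. Rpl7, a large-subunit protein, was at 546, 561, 446, 593 and 512 CPM in ALDHbr and at 624, 641, 565, 655 and 652 CPM in ALDHdim libraries (−0.24, SE 0.13). Only ALDHbr 4 exceeded the lowest ALDHdim value, ALDHdim 3. Rps3a1, a small-subunit protein, averaged 586.5 ± 49.9 and 641 ± 52.3 CPM (−0.13, SE 0.13), Rpl23 averaged 607.8 ± 65.4 and 644.7 ± 31.5 CPM (−0.09, SE 0.13), and Rpl23a, which sits at the tunnel exit, averaged 10.4 ± 2.17 and 10.9 ± 1.90 CPM (−0.09, SE 0.26).

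The P-stalk, formed by Rplp0 with Rplp1 and Rplp2, recruits the GTPases of translation. Rplp1, of the highest total count among members, was at 1509, 3257, 2621, 2001 and 2353 CPM in ALDHbr and at 1704, 1839, 2142, 1911 and 1992 CPM in ALDHdim libraries (0.29, SE 0.19). Rplp0, often used as a reference gene, was at 904, 1637, 1510, 1410 and 1455 against 1019, 1020, 1141, 1196 and 1311 CPM (0.28, SE 0.17). Rplp2 averaged 856.2 ± 178 and 695.3 ± 68.9 CPM (0.30, SE 0.16). The 3 genes shared their order in that ALDHbr 1 was the lowest and ALDHbr 2 the highest of all 10 libraries.

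The members that are not canonical subunits held 2 of the 5 highest estimates. Rps27rt, a retrogene of Rps27, was at 165, 520, 322, 246 and 288 CPM in ALDHbr and at 170, 226, 259, 181 and 193 CPM in ALDHdim libraries (0.56, SE 0.24, unadjusted p = 0.0352 in edgeR). Only 9.9% of the 81-base words in its last 400 transcript bases were found in no other gene, so reads of Rps27 and Rps27rt may have been divided between them. Rps19bp1 was at 22.2, 19.6, 19.4, 29.9 and 23.3 against 14.2, 11.6, 17.9, 19.4 and 18.7 CPM (0.53, SE 0.21, unadjusted p = 0.0232 in edgeR). It was the single member whose groups did not overlap, with 19.4 CPM in ALDHbr 3 and 19.37 CPM in ALDHdim 4, against 0.535% of all tested genes in either direction and 0.249% with ALDHbr higher.

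Some paralogs can replace their relatives in the ribosome, which was not measured here. Each paralog was set against its relative within a library, as a ratio of counts that needs no scaling between libraries. Rps27l, a p53 target in many tissues, stood to Rps27 at 0.572, 0.396, 0.585, 0.678 and 0.636 in ALDHbr and at 0.622, 0.302, 0.561, 0.654 and 0.630 in ALDHdim libraries. The lowest ratio in each group was at replicate 2, and the groups overlapped (difference of mean log2 ratio 0.08, exact two-sided permutation p = 0.722). Rps27l itself was at 271, 481, 591, 449 and 542 CPM in ALDHbr libraries. In ALDHdim libraries it was at 351, 206, 447, 427 and 411 CPM. Rps27l was thus lowest of its group at ALDHdim 2 but not at ALDHbr 2. In ALDHbr 2 Rps27 was at 1217 CPM, its highest of the 10 libraries. Of the 9 genes on the list of p53 and its targets and regulators, 5 were lowest at ALDHbr 2 and ALDHdim 2 within their groups. They were Bax, Zmat3, Cdkn1a (58.7 CPM in ALDHbr 2 and 80.7 CPM in ALDHdim 2, against 259 to 403 CPM in the other 8), Phlda3 (62.6 and 48.9 against 101 to 135 CPM) and Ccng1 (182 and 125 against 222 to 470 CPM). The other 4, Trp53, Mdm2, Mdm4 and Sesn1, were not: Mdm2 was lowest at ALDHbr 2 but not at ALDHdim 2, and Sesn1 was highest of its group at ALDHdim 2 (43.4 against 28.1 to 40.1 CPM). ALDHbr 2 and ALDHdim 2 were also the lowest of their groups for the scores of the cell cycle, fibrotic matrix and macrophage lists. Of all tested genes, 19.1% were lowest of the 10 libraries in ALDHbr 2 and 9.51% in ALDHdim 2. The share lowest of both groups at replicate 2 was not computed over all genes. These libraries were singled out after their values were seen, and whether the ratio moves with p53 targets was not tested.

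Rpl22l1, the paralog of Rpl22, ran from 0.0463 to 0.0841 of its relative's counts over the 10 libraries (log2 difference 0.14, exact permutation p = 0.444). Rpl7l1 against Rpl7 differed by 0.28 (exact permutation p = 0.190), with 0.0852 to 0.146 in ALDHbr and 0.0739 to 0.118 in ALDHdim libraries. Rpl36al against Rpl36a was at 0.127, 0.0725, 0.0650, 0.0880 and 0.0676 in ALDHbr and at 0.130, 0.121, 0.0833, 0.106 and 0.104 in ALDHdim libraries (−0.40, exact permutation p = 0.103). Over the 10 libraries Rpl36al ran only from 28.5 to 41.1 CPM, while Rpl36a ran from 226 to 579 CPM. Both were lowest in ALDHbr 1 and highest in ALDHbr 2, so the ratio varied mainly with Rpl36a. Of the 81-base words in the last 400 transcript bases, 0% in Rpl36a and 25.8% in Rpl36al were found in no other gene. Their ratio may therefore depend on how shared reads were counted, which is not known. All 4 paralog ratios had an adjusted p of 0.333 or more over the 7 library-level measures. Without ALDHbr 1, singled out after the values were seen, Rpl36al over Rpl36a differed by −0.56 (unadjusted exact permutation p = 0.0238). Rpl39l, a paralog best known from testis, and Rpl3l, best known from striated muscle, had 7 and 12 counts in all, and their ratios were not tested.

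**Figure D3:**
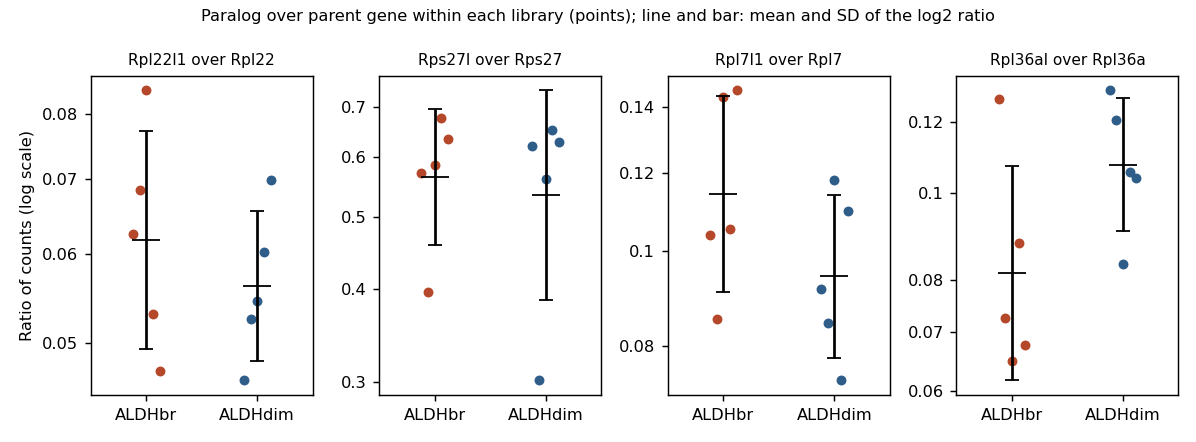
Ratio of counts of each paralog to its relative within a library (points, log scale), with the mean and SD of the log2 ratio (line and bar) over 5 libraries a group. The 2 groups overlap in each of the 4 pairs, and ALDHdim 2 has the lowest Rps27l ratio (0.302).

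The balance of the subunits was nearly the same in every library. Summed counts of Rpl genes, stalk and paralogs included, over those of Rps genes were 1.20, 1.13, 1.11, 1.13 and 1.12 in ALDHbr and 1.17, 1.17, 1.16, 1.15 and 1.15 in ALDHdim libraries. ALDHbr 1 was above all others and the remaining 4 ALDHbr libraries were below all ALDHdim libraries. The log2 ratio averaged 0.185 ± 0.0467 and 0.214 ± 0.0132 (difference −0.03, exact permutation p = 0.238, adjusted p = 0.333). Without ALDHbr 1, singled out after the values were seen, the difference was −0.05 (unadjusted exact permutation p = 0.00794). The separation of the remaining libraries fixed that p, and no conclusion is drawn from it.

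Across libraries most members moved together. The mean pairwise correlation of their log2 CPM, centred within groups over the 10 libraries, was 0.717 for the 82 tested members and 0.763 for the 76 subunit and stalk genes. It was 0.025 for 999 other genes of like level (140 to 1184 CPM), 0.167 for 74 mitochondrial ribosomal protein genes and 0.00043 over all tested genes. These values share each library's total and scaling factor, and are given as a description. The members' mean log2 CPM, centred per gene, was most extreme in ALDHbr 1 (−0.415) and ALDHbr 2 (0.451). It ran from −0.256 to 0.262 in the other libraries. The correlations, and the slopes given below, were not computed without ALDHbr 1 and ALDHbr 2. Within groups the SD of log2 CPM had a median of 0.253 for members, 0.232 for genes of like level and 0.314 for all tested genes.

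ALDHbr 1 was the lowest of the 10 libraries for 64 of 82 members, against 10.7% of all tested genes, and ALDHbr 2 was the highest for 66 of 82, against 18.4%. The SD of CPM was larger in ALDHbr than in ALDHdim recipients for 80 of 82 members (97.6%), against 70.0% of all tested genes. In ALDHdim recipients ALDHdim 1 was the lowest of the group for 53 members and ALDHdim 3 the highest for 43.

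**Figure D4:**
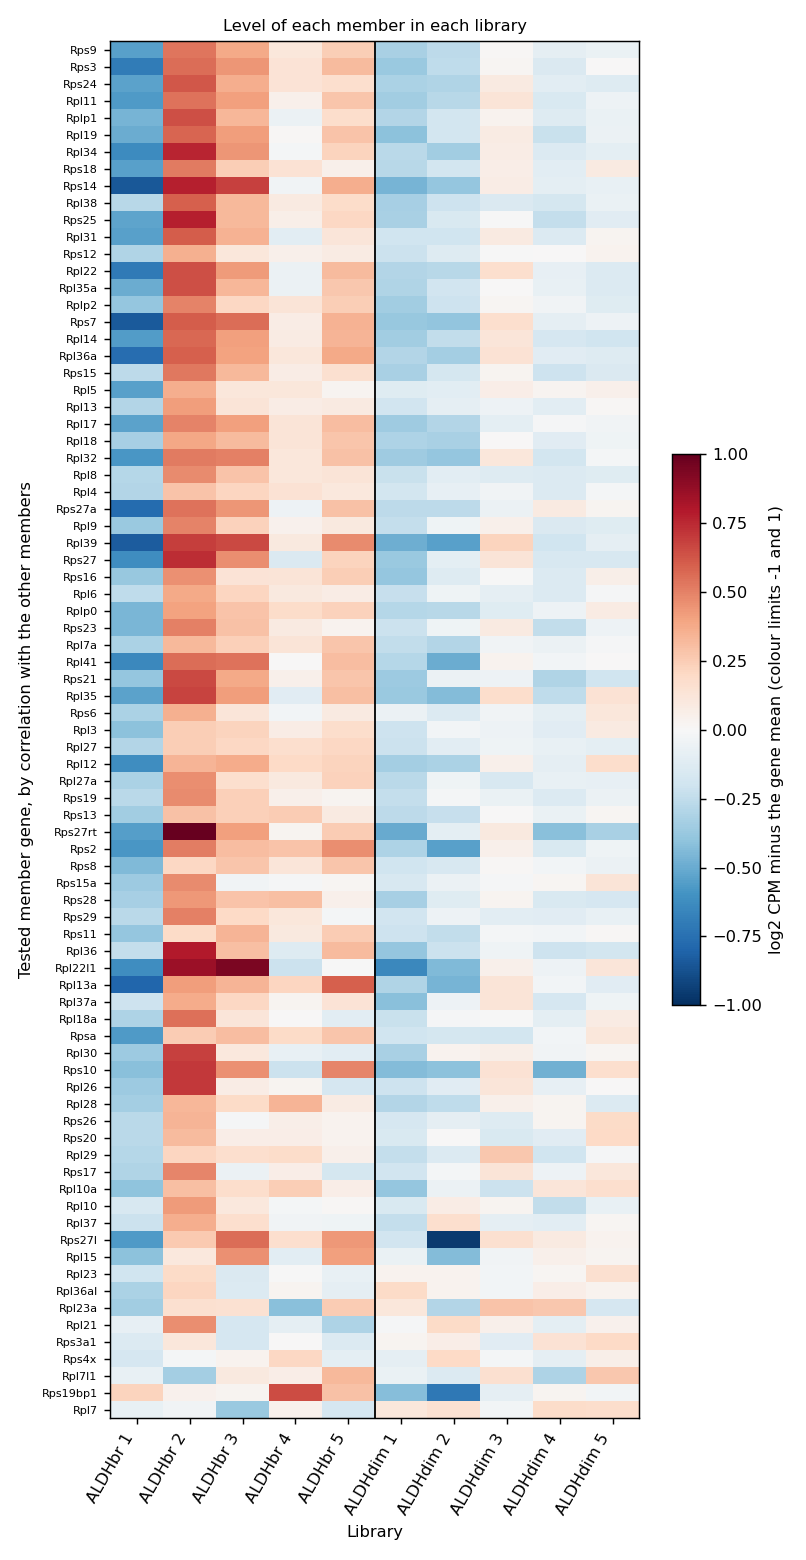
Level of the tested members (rows, ordered by correlation with the other members) in each library (columns), as log2 CPM minus the gene's mean, with the colour scale limited to −1 and 1 and a line between the groups. ALDHbr 1 is the lowest of the libraries and ALDHbr 2 the highest for most rows, while rows at the bottom, such as Rps3a1, Rps4x and Rpl7, show small deviations or opposite ones.

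Each subunit or stalk gene was then set against the mean of the other members over the 10 libraries. The correlation had a median of 0.938, was over 0.9 for 49 of the 76 genes and over 0.8 for 63, and was under 0.5 for 4: Rpl7 (−0.225), Rps4x (0.285), Rps3a1 (0.306) and Rpl21 (0.369). The slope on the log2 scale, where 1 means a gene moves as the rest do, was largest for Rps14 (1.99), Rpl39 (1.96) and Rps7 (1.79), and was over 1.5 for 9 genes. It was under 0.5 for 5, namely Rpl21 (0.327), Rpl23 (0.301), Rps4x (0.151), Rps3a1 (0.147) and Rpl7 (−0.115). These genes were chosen after their values were seen. Rps4x averaged 492.6 ± 49.5 and 499 ± 43.4 CPM in ALDHbr and ALDHdim recipients.

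No property examined went closely with the slope across the 76 genes. Spearman's rho with the slope was 0.268 for level, −0.240 for transcript length, 0.172 for GC content and 0.0633 for the share of unique 3′ sequence (across genes, which are not independent replicates). Genes with a pyrimidine run at any matched RefSeq start had a median slope of 1.12 (31 genes). Those with a matched start but no run had 0.955 (25 genes).

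Genes outside the list that followed the members most closely were chosen by the correlation of their group-centred log2 CPM with the members' mean over the 10 libraries. The leading 3 were Rack1 (r = 0.996), a scaffold protein bound to the small subunit, Eif3h (0.983), a subunit of initiation factor eIF3, and Tpt1 (0.979), a growth-linked protein whose mRNA carries a TOP motif. Then came Gm5905 (0.972), Rps27a-ps2 (0.971), Gm11478 (0.971), Immp1l (0.971), Gm5805 (0.970), Eef1b2 (0.970), a subunit of the elongation factor 1 exchange complex, and Rpl36a-ps2 (0.965). Of these 10, 5 are copies of members by name or sequence, as Gm5905 is of Rps9, Gm11478 of Rpl13a and Gm5805 of Rps14. Rack1 was at 988, 2410, 2014, 1710 and 1898 CPM in ALDHbr and at 1172, 1267, 1568, 1378 and 1571 CPM in ALDHdim libraries (0.37, SE 0.20), with ALDHbr 1 lowest and ALDHbr 2 highest again.

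The wider translation machinery gave 0 called genes in any list. Other genes with known or likely TOP motifs had 16 of 20 estimates above 0 and a median log2 fold change of 0.12. Among them Fau, which encodes a small-subunit protein fused to a ubiquitin-like one, had 0.33 (SE 0.18), Eef1a1, the elongation factor that brings tRNA, 0.26 (SE 0.16), Tpt1 0.28 (SE 0.19) and Eef2, the translocation factor, 0.13 (SE 0.14). Npm1, a nucleolar chaperone, had −0.23 (SE 0.13).

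Mitochondrial ribosomal protein genes had 58 of 74 estimates above 0 and a median of 0.11. Initiation factors had 13 of 27 above 0 (median −0.04) and ribosome assembly factors 21 of 37 (median 0.05). Of the genes that control the members, mTORC1, LARP1 and MYC components had 12 of 21 above 0 (median 0.02), with Larp1 at −0.33 (SE 0.20), the kinase gene Mtor at −0.12 (SE 0.26) and Myc at 0.00 (SE 0.34). The p53 list had 3 of 9 above 0 (median −0.05), and Mdm2, the ubiquitin ligase of p53, had −0.01 (SE 0.18).

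The members' mean level was compared with library measures over the 10 libraries, in 6 relations. With the total counts Pearson's r was −0.727 (permutation p = 0.0178, adjusted p = 0.107) and Spearman's rho −0.721 (permutation p = 0.0249, adjusted p = 0.149). Without ALDHdim 2 and ALDHbr 2, the libraries farthest from the median total, r was −0.550. Within groups, of only 5 libraries each, r was −0.897 in ALDHbr and −0.195 in ALDHdim recipients. With the share of mitochondrially encoded counts r was 0.629 (permutation p = 0.0536, adjusted p = 0.161) and rho 0.455 (permutation p = 0.193, adjusted p = 0.354). Without the 2 farthest libraries r was 0.544. Within groups it was 0.843 in ALDHbr and 0.798 in ALDHdim recipients, again of 5 libraries each and not tested. None of the 6 passed after adjustment.

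The other 4 relations were with genes detected at equal depth (r = 0.439, rho = 0.370), and with scores of the cell cycle (−0.0393, 0.224), lymphocyte (0.354, 0.394) and fibrotic matrix (−0.524, −0.382) lists, with permutation p from 0.122 to 0.914 for r and from 0.262 to 0.538 for rho. Within groups the fibrotic matrix value was −0.736 in ALDHbr and 0.293 in ALDHdim recipients, of opposite sign. Without the 2 farthest libraries r was 0.0119, 0.584, 0.450 and −0.479. The cell cycle value changed sign, and it rested on ALDHdim 2 and ALDHbr 2, whose scores were −1.05 and −1.01 against −0.282 to 0.717 in the others.

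Marker lists of other cells moved with the libraries as follows, and their part in the members' levels was not tested. The fibrotic matrix list had 0 of 17 estimates above 0 (median −0.20), with scores from −1.47 in ALDHbr 2 to 0.548 in ALDHbr 5 and from −0.942 in ALDHdim 2 to 0.896 in ALDHdim 5. The endothelial list had 3 of 9 above 0 (median −0.07), and its score was 0.580 in ALDHbr 1 and −0.421 to 0.114 in the other ALDHbr libraries. In ALDHdim recipients it ran from −0.476 to 0.690, the highest of the 10 being ALDHdim 2. Lymphocyte genes had 8 of 14 above 0 (median 0.06), macrophage genes 2 of 14 (−0.11), neutrophil genes 1 of 7 (−0.87), plasma cell genes 4 of 4 (0.69), red cell genes 4 of 4 (0.36), cardiac muscle genes 0 of 7 (−0.43) and ciliated cell genes 2 of 7 (−0.16). The 6 skeletal muscle genes were all under the count filter.

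Many members share 3′ sequence with other genes. How reads that fit several genes were counted is not known, and the part of shared sequence in the counts was not tested. Counts of the subunit and stalk genes differed by 925-fold, from 28 for Rpl24 to 25902 for Rplp1. Among the 9 such genes whose last 400 transcript bases held only 81-base words found in no other gene (81 bases being the length of the RNA read), counts ran from 4838 to 20494, a 4.24-fold range. The 13 genes with under 25% of such words had a median of 6481 counts and the 26 with at least 75% a median of 9848. Across all 77 genes Spearman's rho between uniqueness and counts was 0.24 (across genes), and Rpl5 and Rpl36a, with no unique word, had 8733 and 4772 counts.

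Rpl24, a large-subunit protein, had 28 counts, was at 0 to 5.87 CPM and was not tested, and 14.7% of its words were unique. Its processed copy Gm9385, at chr9:116040593-116041064 on GRCm38, had 571 counts, and the annotated gene Gm28037 overlaps Rpl24 itself. Rpl13a had 1157 counts against 6057 on Gm11478 (chr11:86630428-86631026), so that 84.0% of their joint counts lay on the copy. Rpl10a had 1831 counts against 4186 on Rpl10a-ps1 (chr1:64993951-64994604), and Rpl23a had 133 against 220 on 11 copies. Rpl36, with 31.7% of its words unique, had 3150 counts against 1904 on 4 copies. Levels of these genes, and fold changes between them, are uncertain.

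In all, 458 genes elsewhere in the genome that are not annotated as protein coding, or are marked as pseudogenes, shared an 81-base word with a member. They held 79360 counts, 9.98% of the counts of members and copies together, and 71 members had at least 1 copy. Some protein-coding genes share words too and were not counted as copies, such as Gm2000 (3535 counts) for Rpl35 and Wdr89 (3342) for Rplp2.

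The copies' share was 9.98%, 10.4%, 10.7%, 9.97% and 10.2% in ALDHbr and 9.76%, 9.89%, 9.93%, 9.39% and 9.86% in ALDHdim libraries. Each ALDHbr value exceeded each ALDHdim value, with ALDHbr 4 and ALDHdim 3 closest. The means were 10.2 ± 0.290% and 9.77 ± 0.220%, a difference of 0.481 percentage points (exact two-sided permutation p = 0.00794, the smallest possible, adjusted p = 0.0556 over the 7 measures). This measure was added after the data were seen. The ALDHbr libraries 3 and 5, which detected more genes, held 2 of the 3 highest shares, and without them the difference was 0.342 percentage points (exact permutation p = 0.0536).

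**Figure D5:**
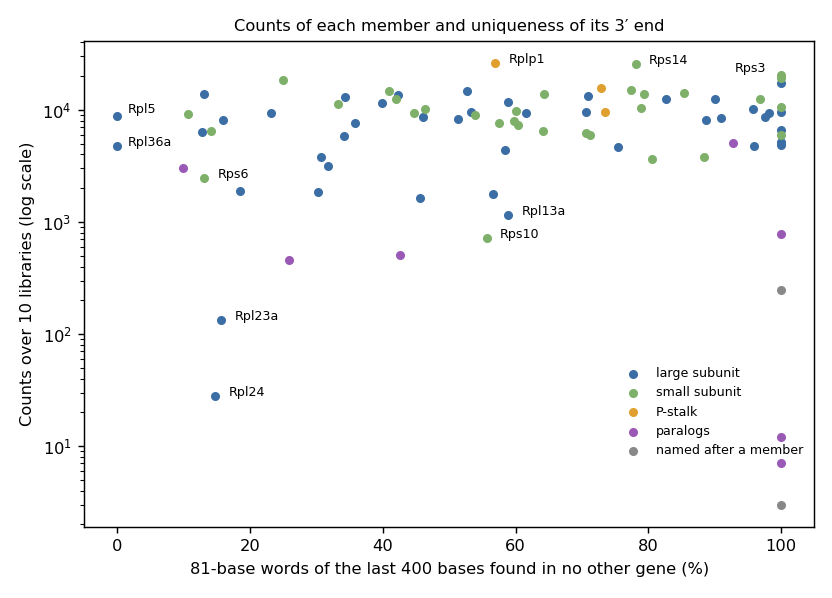
Counts of each of the 86 members over the 10 libraries (vertical, log scale) against the share of 81-base words in the last 400 transcript bases that occur in no other gene (horizontal, %), coloured by role. Rpl24 and Rpl23a combine few unique words with the lowest counts of any subunit gene, while Rpl5 and Rpl36a have none and still hold 8733 and 4772 counts.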

How the data were processed

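RNA of 10 lung samples was sequenced by BRB-seq, a pooled 3′ method with a UMI of 10 nt, a barcode of 9 nt and an RNA read of 81 nt, per the labels' protocols, so counts are not proportional to length. The authors deposited raw counts per gene, whole and not normalized. Per the submitters' processing notes, HISAT2 2.2.1, featureCounts 2.0.1, Trim Galore 0.6.7, UMI-tools and DESeq2 were used with the builds GRCm38 and GRCh38, in roles that are not given. UMI collapsing, strand, multiple alignments and annotation are not stated by any source here. All 86 identifiers were found in GENCODE M21, on the same chromosome.

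Genes passing filterByExpr (minimum count 10; 10844 genes, 97.3% of counts) were tested after TMM scaling with edgeR 4.0.16 in R 4.3.3 (robust glmQLFit, glmQLFTest, Benjamini-Hochberg over all tested genes, threshold 0.05). Fold changes are ALDHbr over ALDHdim, CPM is relative to the TMM-scaled total over tested genes, and list scores are means of log2 CPM (prior count 2) centred per gene. Library-level measures were compared by exact permutation over 252 assignments, with 0.5 added to counts in paralog ratios, which needed a mean count of at least 10. Relations used 100000 resamples in scipy 1.17.1. On simulated data for this comparison (3 simulations of 10844 genes, 200 changed) the test recovered 23.3% of 1.5-fold, 66% of 2-fold, 92% of 3-fold and 96% of 4-fold changes, and 6.09% of its calls were false. Start sites came from RefSeq, and unique words from GENCODE M21 transcripts.

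The members and lists were chosen with earlier results of these data known. Named are the 5 highest and 5 lowest fold changes, the 5 highest levels, the 5 largest spreads, paralog pairs, members under the filter (Rpl24, Rpl3l, Rpl39l and Rps23rg1, with 28, 12, 7 and 3 counts), a fixed set of members and translation genes, and the 10 most alike other genes. Of the genes this rule takes, 2 are not reported here, and the heatmap and the fold change plot leave out a member for that reason. Alternatives were other scalings, filters, DESeq2 1.42.0, limma-voom with sample weights (limma 3.58.1) and the replicate number as a block. Others were removal of hemoglobin, immunoglobulin and mitochondrial genes, and leaving out libraries. Plots were drawn with matplotlib 3.10.9.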

Additional observations from a re-analysis of the deposited data

Results flagged for a closer look

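Of 94 sets of 5 values examined (member levels and library-level measures within a group), 3 had a library set apart from its group, against 4.7 expected, since chance flags about 1 set in 20. The level of Rpsa in ALDHbr 1 was 386 CPM while the other 4 of its group had 655 to 708 CPM, and the gap took 0.837 of the group's range. The log2 ratio of Rpl to Rps counts in ALDHbr 1 was 0.267, against 0.148 to 0.173 in the other ALDHbr libraries (0.79 of the range). The log2 ratio of Rps27l to Rps27 in ALDHdim 2 was −1.73, against −0.834 to −0.614 in the other ALDHdim libraries (0.803 of the range).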

How the results depend on the processing

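The count of members called was 0 under every alternative run. The count over all genes was 0 too, except 185 with no low-count filter. The members' median log2 fold change was 0.16 (no filter) to 0.29 (limma-voom with sample weights) under the other settings that keep all libraries. It was 0.17 to 0.36 leaving out each library in turn. Of 760 alternative values for 38 named genes, 735 kept their direction and side of the threshold, and the cause of the changes below was not tested.

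Leaving out each library in turn, the difference in the members' share ran from 0.458 to 1.13, the log2 ratio of Rpl to Rps counts from −0.05 (−0.0485, without ALDHbr 1) to −0.02 (−0.0189), Rps27l over Rps27 from −0.13 (−0.125, without ALDHdim 2) to 0.21, and Rpl36al over Rpl36a from −0.56 to −0.32. The log2 fold change ran from −0.19 to 0.00133 for Rpl23a, −0.0406 to 0.13 for Rpl7l1, −0.0403 to 0.17 for Rpl5, −0.25 to 0.0611 for Mtor, −0.33 to 0.20 for Myc and −0.16 to 0.0998 for Mdm2. With no filter Rpl7l1 was at −0.0153, Rpl5 at −0.0256 and Myc at −0.0480. With DESeq2 Myc was at −0.0562, and with genes kept by a mean count of 10 or more at −0.00076. Without both ALDHbr 3 and ALDHbr 5, chosen after seeing the data, Rpl7l1 was at −0.0804, Mtor at 0.0522, Myc at −0.0576, Mdm2 at 0.0227 and the copies' share difference at 0.342. Without the 2 farthest libraries r was −0.550 for total counts and 0.584 for the cell cycle score.

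The groups share replicate numbers, and the labels do not say what a number marks. Deviations of same-numbered libraries correlated at 0.0616, 0.366, 0.150, 0.259 and 0.281, and 7 of 10 libraries correlated best with their own number, a hint from the data only. With the replicate number as a block 0 genes passed and Myc was at −0.0976. In that edgeR fit 20 of 82 members had an unadjusted p under 0.05, and 727 of all 10844 genes did. Without the block there were 9 members and 402 genes at that level. With same-numbered libraries paired, the copies' share difference of 0.481 had an exact permutation p of 0.0625, the smallest that 5 pairs allow. Depth kept 4 members out of the test, and 1.5-fold changes were mostly missed in simulated data.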
